A study of Mus musculus with 12 samples.

Results

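Baseline expression of the adult mouse left ventricle was described from the 6 arrays of vehicle-treated mice, of 12 arrays in the study. The vehicle arrays were chosen by their label alone and comprised 3 female and 3 male mice of the outbred ICR stock, which were 12 to 14 weeks old. Each mouse carried a pump under the skin that delivered 0.02% ascorbic acid for 24 h, placed under ketamine and xylazine anaesthesia. The same anaesthesia and pump were shared by the other 6 mice, which received verapamil, a blocker of the L-type calcium channel, at 3.6 mg per kg per day for 24 h. The protocols name ascorbic acid only for the vehicle pumps. The verapamil arrays are used here only as a second measure of the spread between mice. RNA came from the free wall of the left ventricle, so heart muscle cells were measured together with vessels, connective tissue, blood and the outer lining of the heart. No untreated mouse was measured, so the baseline is that of mice after anaesthesia and a pump. Arrays are named by sex and number. A single female label holds no number, and that array is female vehicle 1.

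Heart muscle shortens when myosin heads of the thick filament pull on the actin of the thin filament, which troponin and tropomyosin open when calcium enters the cell. The adult mouse ventricle uses the fast heavy chain Myh6, with Myh7 as the slow form of fetal and stressed hearts, and its own pair of light chains, while the atria use Myl7 and Myl4. ATP comes mostly from fatty acids burned in densely packed mitochondria, and creatine kinases carry the phosphate to the filaments and pumps.

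All values are log2(signal + 7) of a gene's brightest probe set, and a level is the mean of the 6 arrays. Errors are within-group SDs, taken after the mean of each sex was removed, with 4 degrees of freedom. In all, 18193 genes had a probe set with a single symbol. Of these, 11467 had a level above 6.53, the median of all probe sets, and were examined for spread. Every array had the same trimmed mean signal, 500, and pairs of arrays correlated between 0.93 and 0.95. Actin signal near the 3′ end exceeded that near the 5′ end 2.08-fold in female vehicle 1 and 2.24-fold in male vehicle 1. The remaining arrays had ratios from 1.41 to 1.56, and a high ratio can mean degraded RNA or short labelled products. The number of arrays limited the precision.

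The genes of highest signal made energy or force. Uqcrb, a subunit of respiratory complex III, came first at 15.58 ± 0.09, with 15.55, 15.69 and 15.43 in the females and 15.64, 15.59 and 15.59 in the males. Myh6 was second at 15.40 ± 0.11, with 15.35, 15.49 and 15.24 in the females and 15.53, 15.33 and 15.44 in the males. Both genes stayed within a narrow band, and the lowest array was female vehicle 3 each time. The order is one of probe signals, which depend on each probe's sequence as well as on the transcript, so neighbours in it have no order of abundance. Where a gene's probe sets were averaged, Mb fell to 9.87, Fabp3 to 11.81 and Tpt1 to 9.57, and Atp5c1 had 6.80 without probe sets that can match several transcripts. The first 30 genes ran from 15.58 down to 15.05, and the 31st, Atp5a1, also had 15.05.

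**Figure D1:**
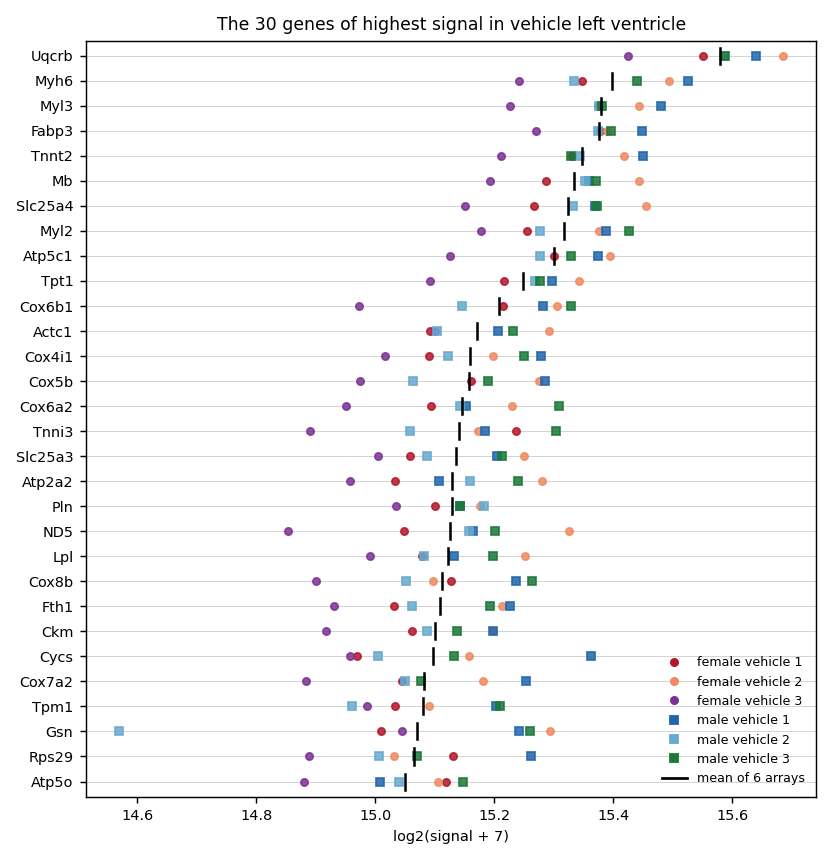
Signal of the 30 genes with the highest mean in vehicle left ventricle, on the log2(signal + 7) scale. Circles are the 3 female and squares the 3 male arrays, and the black bar is the mean of 6. Female vehicle 3 was the lowest array for most of the genes, and Gsn had 1 low array, male vehicle 2 at 14.57.

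Genes were counted by the family list that held them. Among the first 30, 12 were in the lists of the respiratory chain, ATP synthase and mitochondrial carriers. A further 7 belonged to the sarcomere and Z-disc lists, 4 to those of fuel use and oxygen storage, and 2 to calcium handling. The other 5 lay in none of the family lists. These were Tpt1, a growth-related protein found in all tissues, the mitochondrial ND5 gene, the iron store Fth1, the actin-severing Gsn and the ribosomal Rps29. The family lists are not complete, as Rps29 lay outside the ribosomal list, so counts by list can miss members of a family. Of the first 100 genes, 41 were in the respiratory lists, 14 in those of the sarcomere and Z-disc and 15 in those of fuel use. The ribosomal list held 7 and the calcium handling list 2, and 19 lay in no family list. The 100 genes took between 13.2% and 14.8% of an array's signal summed over the brightest probe set of every gene. Their median SD was 0.12, against 0.25 over all genes examined and 0.20 over those with a level above 10. In the verapamil arrays, 96 of them were again among the first 100. Female vehicle 3 lay 0.16 below the 6-array mean over these 100 genes, and the other arrays lay between -0.03 and 0.09 from it.

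Respiratory subunits formed the brightest lists. The 14 measured genes of complex IV, which hands electrons to oxygen, had a median level of 14.97, against 7.83 over all genes, and 9 were among the first 100. Cox6b1 led them at 15.21 ± 0.14, followed by Cox4i1 at 15.16 ± 0.09 and Cox5b at 15.16 ± 0.13. The dimmest was Cox7c at 6.93 ± 0.53, a subunit of the same complex, so a dim probe set of a gene does not show that the gene is silent. ATP synthase and the mitochondrial carriers had a median of 14.79, with 14 of 20 genes among the first 100. Slc25a4, which exchanges ATP for ADP across the inner membrane, had 15.32 ± 0.11, the phosphate carrier Slc25a3 had 15.14 ± 0.10 and the synthase subunit Atp5c1 had 15.30 ± 0.10. The dimmest member, the outer membrane channel Vdac3, still had 14.00 ± 0.14.

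Complexes II and III had a median of 14.63, from Sdhc at 13.72 ± 0.12 to Uqcrb, with 8 of 14 genes among the first 100. Cycs, which carries electrons from complex III to complex IV, had 15.10 ± 0.15 and was highest in male vehicle 1, at 15.36. Complex I had a median of 14.40 over 34 genes. Its brightest members were Ndufb9 at 14.94 ± 0.10, Ndufv2 at 14.81 ± 0.10 and Ndufs8 at 14.80 ± 0.22, and its dimmest probe set was that of Ndufb4 at 4.75 ± 1.17. The tricarboxylic acid cycle, which feeds these complexes, had a median of 14.34 over 19 genes. Mdh1 had 14.85 ± 0.17, Mdh2 14.69 ± 0.13 and Pdhb of the pyruvate dehydrogenase complex 14.67 ± 0.16. The spread of these lists was small, with median SDs of 0.11 to 0.13.

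Genes of fatty acid use had a median of 14.06 over 26 genes, with 6 among the first 100. Fabp3, which carries fatty acids through the cell, was the fourth gene of the whole order. Its values were 15.38, 15.39 and 15.27 in the females and 15.45, 15.38 and 15.40 in the males. Lpl, which frees fatty acids from blood lipids, had 15.12 ± 0.10, and Ech1 and Hadhb of beta-oxidation had 14.92 ± 0.08 and 14.87 ± 0.08. The uptake protein Slc27a1 was the dimmest at 10.22 ± 0.18. Glycolysis and glucose uptake had a median of 13.66 over 18 genes, led by Aldoa at 14.82 ± 0.13, Ldhb at 14.80 ± 0.17 and the muscle enolase Eno3 at 14.74 ± 0.11. Pfkfb2, which makes an activator of glycolysis, was dimmest at 10.24 ± 0.31. Phosphate transfer and oxygen storage had a median of 13.50 over 7 genes, with 3 among the first 100. These were the oxygen binder Mb at 15.33 ± 0.09, Ckm, the creatine kinase of the muscle cytosol, at 15.10 ± 0.11 and its mitochondrial partner Ckmt2 at 14.98 ± 0.09, and the lowest was Ckb, the brain creatine kinase, at 10.76.

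Contractile genes were bright as a group. The thin filament list had a median of 14.51 over 10 genes, with 5 among the first 100, and the thick filament list a median of 14.07 over 12 genes, with 4 among them. Mybpc3, the cardiac myosin-binding protein, had 14.62 ± 0.09, and the lowest thick filament gene was Myom3, a member of the M-band, at 6.85 ± 0.36. Z-disc and desmosome genes had a median of 13.73 over 22 genes. Csrp3 had 14.99 ± 0.06, Myoz2 14.89 ± 0.06, and the small heat shock protein Cryab 14.78 ± 0.10, while Flnc was lowest at 10.51 ± 0.26. Calcium handling had a median of 12.18 over 19 genes. Its brightest members were the calcium pump Atp2a2 and its inhibitor Pln, both at 15.13, and S100a1, which binds calcium, at 14.50 ± 0.13. Ion channels and pumps had a median of 10.31 over 17 genes, led by Fxyd1 at 13.94 ± 0.10 and Atp1b1 at 13.81 ± 0.16, both partners of the sodium pump. Cardiac transcription factors had a median of 10.57 over 22 genes, from Hand1 at 7.07 ± 0.44 to Mef2a at 12.92 ± 0.12.

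Marker genes were set beside the tissue label. All 10 cardiomyocyte markers were measured and all 10 were among the first 500 genes. Thymus and liver markers, 6 and 5 genes, had medians of 4.46 and 6.01, and none passed 6.53. Of 15 markers of distant tissues (gut, pancreas, pituitary and others), 3 passed that level, against 11467 of all 18193 genes. Extracellular matrix genes had a median of 11.42 over 24 genes, led by the proteoglycan Dcn at 14.76 ± 0.16 and by Mgp, an inhibitor of calcification, at 14.01 ± 0.22. Macrophage markers had a median of 11.33 over 12 genes, endothelial markers 10.99 over 13, and fibroblast markers 10.89 over 11. The T and NK cell list had 1 of 9 measured genes above 6.53. Other muscle lists were not low. Of 12 atrial markers, 10 passed 6.53 and 4 were among the first 500 genes. Of 13 skeletal muscle markers, which include Ckm, Acta1 and Myl1, 7 passed it and 3 were among the first 500.

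Within isoform families, the probe sets differed widely in signal, which is described here without an order of abundance. In the heavy chain family, Myh6 was followed by Myh7 at 11.57 ± 0.86 (rank 1581), then by Myh7b at 9.12 ± 0.36 and the smooth muscle Myh11 at 8.77 ± 0.49. The skeletal and embryonic chains Myh1, Myh2, Myh3, Myh4 and Myh8 lay between 4.34 and 5.85, below the level for examination. Myh7 had 12.93, 10.65 and 11.98 in the females and 11.36, 10.86 and 11.62 in the males. Female vehicle 1 was highest and female vehicle 2 lowest, and the sexes overlapped. Without female vehicle 2 its SD was 0.50. The same probe set had an SD of 0.34 in the verapamil arrays. Transcripts of near-identical family members can share probes, which holds for the heavy chains, the muscle actins and the globins.

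**Figure D2:**
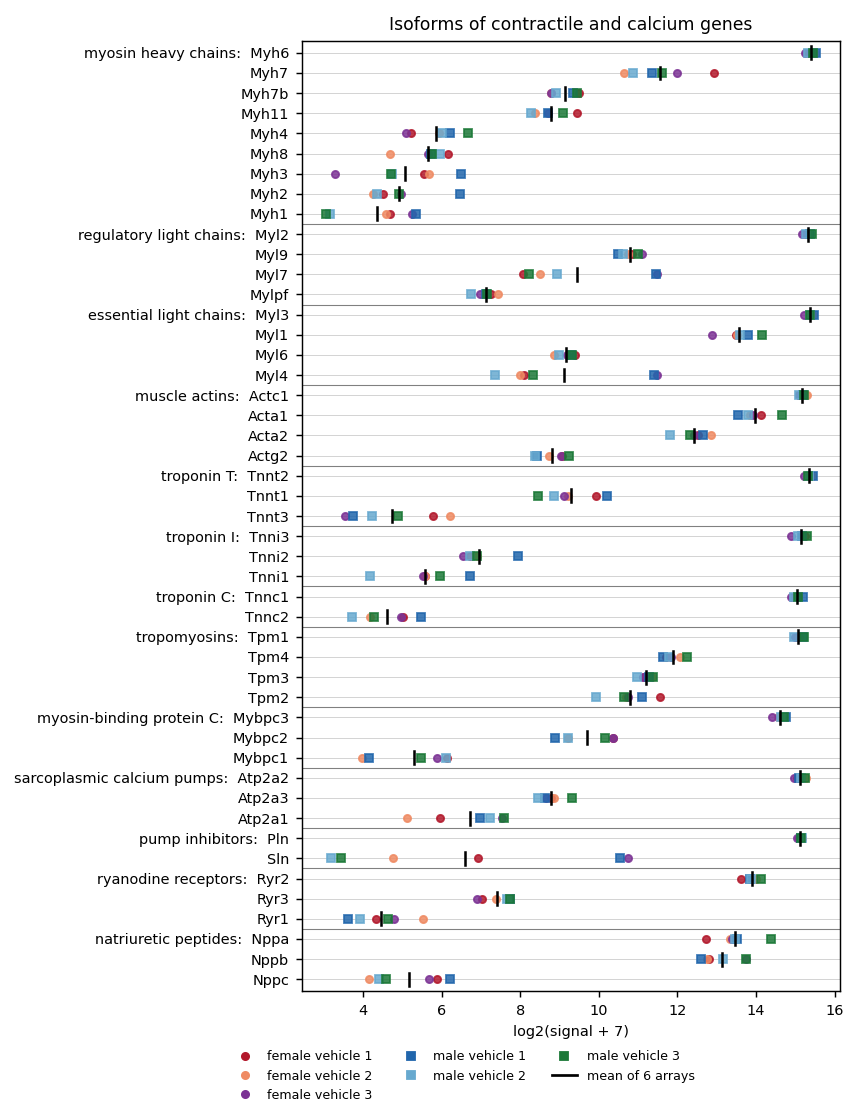
Levels of isoforms in 13 families of contractile, calcium and natriuretic peptide genes, on the log2(signal + 7) scale, by array (circles female, squares male) with the mean of 6 as a bar. The first gene of most families sits near 15 with points that coincide, while Myh7, Myl7, Myl4 and Sln are spread over several units.

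Myh6 and Myh7 lie next to each other on chromosome 14, and the bases before their starts are shown because this pair held both a nearly constant and a variable gene. The 250 bases before the start of each gene, from RefSeq records on GRCm38.p6, minus strand, chr14:54966608-54966857 for Myh6 and chr14:54994627-54994876 for Myh7 (the first of its 2 listed starts), are given 5′ to 3′. Capitals mark the MCAT element, CATTCC on either strand, which TEAD factors bind.
Myh6: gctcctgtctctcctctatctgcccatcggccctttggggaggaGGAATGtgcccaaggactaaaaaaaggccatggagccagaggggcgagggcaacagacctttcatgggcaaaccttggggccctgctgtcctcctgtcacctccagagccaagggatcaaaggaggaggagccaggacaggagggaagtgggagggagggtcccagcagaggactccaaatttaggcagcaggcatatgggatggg
Myh7: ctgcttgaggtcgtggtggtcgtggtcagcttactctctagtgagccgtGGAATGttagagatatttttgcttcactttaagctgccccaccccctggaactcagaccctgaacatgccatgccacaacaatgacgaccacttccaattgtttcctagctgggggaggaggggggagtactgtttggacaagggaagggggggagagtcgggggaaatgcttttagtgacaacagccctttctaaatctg
Each held the element once, on the opposite strand as GGAATG, with its first base 206 bases before the start in Myh6 and 201 in Myh7. Among the 27 promoters matched to 20 of 24 thick and thin filament genes, 11 held the element (40.7%), against 12.6% of all 32851 promoters of this length. For the motif of GATA factors, AGATAA on either strand, the shares were 25.9% and 9.99%. For the TATA box, TATAAA, they were 11.1% and 12.4%. The core of MEF2 sites was searched as TATTTATA, which overlaps the TATA box on the other strand, and as TAAAAATA, and either was held by 7.41% and 3.90%. In the 98 promoters matched to 81 of the 100 brightest genes, the shares were 15.3% for the MCAT element, 10.2% for the GATA motif, 8.16% for the TATA box and 3.06% for the MEF2 core. A match is a run of letters only, and no binding was measured.

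Both ventricular light chains were bright. Myl2, the ventricular regulatory chain, had 15.32 ± 0.09 and Myl3, the ventricular essential chain, 15.38 ± 0.09. The smooth muscle form Myl9 had 10.80 ± 0.23, the skeletal form Mylpf 7.11 ± 0.23, and Myl1, the skeletal essential chain, 13.57 ± 0.33. The atrial forms Myl7 and Myl4 had means of 9.44 and 9.11, which describe no single mouse, as set out under the variable genes. Among actins, Actc1 of the heart had 15.17 ± 0.09, the skeletal Acta1 13.98 ± 0.43, the smooth muscle Acta2 12.43 ± 0.34 and Actg2 8.81 ± 0.37. Acta1, which returns in strained hearts, was highest in male vehicle 3 at 14.67 and lowest in male vehicle 1 at 13.54.

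The cardiac troponins and Tpm1 had the highest signals of their families. Tnnt2 had 15.35 ± 0.09, with the slow skeletal Tnnt1 at 9.29 ± 0.72 and the fast Tnnt3 at 4.73. Tnni3 had 15.14 ± 0.16, with the fetal Tnni1 at 5.58 and the fast Tnni2 at 6.95 ± 0.48, and Tnnc1 had 15.05 ± 0.11 with Tnnc2 at 4.60. Tpm1 had 15.08 ± 0.11, followed by Tpm4 at 11.88, Tpm3 at 11.21 and Tpm2 at 10.78 ± 0.54. For calcium, Atp2a2 had 15.13 ± 0.13 with Atp2a3 at 8.78 and the fast skeletal Atp2a1 at 6.73, and the release channel Ryr2 had 13.89 ± 0.18 with Ryr3 at 7.41 and Ryr1 at 4.46. The calcium store Casq2 had 13.97 ± 0.17 and its skeletal form Casq1 9.42 ± 0.85. Cacna1c, the pore of the cardiac L-type channel that verapamil blocks, had 11.72 ± 0.14.

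Metabolic families showed more than one bright member. Cox6a2 and Cox8b, the muscle forms of oxidase subunits, had 15.15 ± 0.12 and 15.11 ± 0.12, with their widespread forms Cox6a1 at 13.66 ± 0.20 and Cox8a at 12.53 ± 0.10. Cox7a1, the muscle form of subunit 7a, had 14.80 ± 0.10 and Cox7a2 had 15.08 ± 0.13. Ldhb and Ldha had 14.80 and 14.08, Slc25a4 and Slc25a5 15.32 and 14.07, and the phosphorylases Pygb of brain and Pygm of muscle 13.70 and 13.57. Eef1a1 and Eef1a2, the widespread and the muscle and nerve elongation factors, had 14.75 ± 0.13 and 14.57 ± 0.11. Among glucose transporters, the insulin-driven Slc2a4 had 13.07 ± 0.07 and Slc2a1 10.44 ± 0.24. Gja1 was the connexin of highest signal at 14.12 ± 0.23, and the atrial and conduction connexin Gja5 had 4.38. Eno1, Cpt1b and the 3 sodium pump alpha genes had no probe set with a single symbol.

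Of the natriuretic peptides, Nppa and Nppb were bright in these vehicle mice, and Nppc, made mainly by vessels and brain, had 5.15. Nppa, made in the adult atria and in loaded ventricles, had 12.74, 13.35 and 13.40 in the females and 13.52, 13.46 and 14.38 in the males. Nppb had 12.81, 12.76 and 13.75 in the females and 12.60, 13.16 and 13.74 in the males. Male vehicle 3 was highest for Nppa, and for Nppb female vehicle 3 and male vehicle 3 lay above the other 4. Nppa had an SD of 0.45 in vehicle and 1.72 in verapamil arrays.

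Spread between mice of a group was small for most genes. The median SD was 0.25, and 10.6% of the 11467 genes had an SD over 0.5. An SD over 1 was seen in 100 genes, 0.872% of them. The spread fell with the level, with a Spearman correlation of -0.46 across the 11467 genes, which share the same arrays. Of the 100 genes, 73 had a level up to 8, 20 a level from 8 to 10 and 7 a level above 10. The 30 of largest SD ran from Sln at 3.65 to Ammecr1 at 1.29, and the 31st, Nptx1, had 1.29.

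The verapamil arrays, which took no part in choosing these genes, gave a second measure of the same spread. An SD over 1 there was seen in 1.24% of all genes examined, and in 28 of the 100 genes with an SD over 1 in vehicle. By level, it was seen in 3.87% of genes up to 8, against 20 of the 73, in 0.571% from 8 to 10, against 3 of the 20, and in 0.284% above 10, against 5 of the 7. The 7 bright genes were Hnrnpab, Cntd1, Csnk1d, Pabpn1, Cyfip2, Tmem14c and Rsad2, and all but Hnrnpab (0.93) and Csnk1d (0.57) had an SD over 1 in verapamil arrays. Over all genes, the SDs in vehicle and verapamil arrays had a Spearman correlation of 0.38. The spread fell with the level, and the part of the level in this correlation was not tested.

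**Figure D3:**
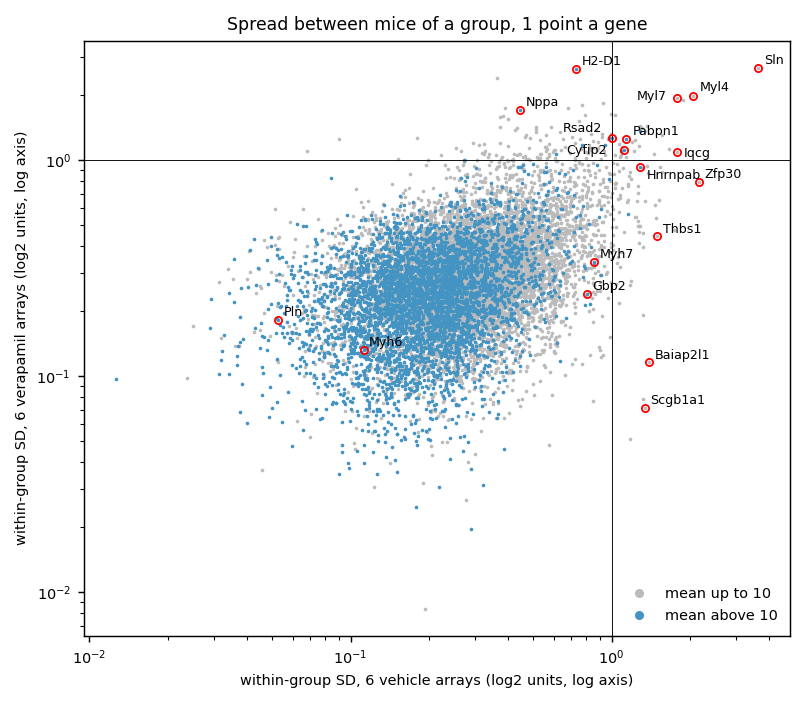
Within-group SD of each of 11467 genes in the 6 vehicle arrays (x) and the 6 verapamil arrays (y), in log2 units on log axes, with lines at 1, blue points for a level above 10, grey for up to 10, and red rings around named genes. Sln, Myl4 and Myl7 are high on both axes, and Baiap2l1 and Scgb1a1 have an SD over 1.3 in vehicle and near 0.1 in verapamil arrays.

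Sln had the largest spread of all genes examined, and Myl4 and Myl7 were among the 30 of largest SD, with 2.05 and 1.78. Sln, the calcium pump inhibitor of the atria, had 6.91, 4.74 and 10.73 in the females and 10.54, 3.18 and 3.44 in the males. Myl4 had 8.08, 7.99 and 11.49 in the females and 11.39, 7.35 and 8.33 in the males, and Myl7 had 8.07, 8.50 and 11.48 against 11.45, 8.93 and 8.22. In each case female vehicle 3 and male vehicle 1 were high and the other 4 low, 1 array in each sex. Sln passed the level of 6.53 only through these 2 arrays. The second, dimmer probe set of Myl4 did not follow (r = -0.29), with 7.46 in female vehicle 3 and 7.31 in male vehicle 1. With the probe sets of a gene averaged, the SD of Myl4 was 0.99. The atrial list as a whole had a median SD of 0.46, with 4 of 10 examined genes over 0.5. Female vehicle 3 and male vehicle 1 were the 2 highest arrays for 3 of the 10, Sln, Myl4 and Myl7. With the level filter taken on the other arrays, Sln left and the count was 2 of 9. How many of all genes had this order was not counted. Nppa, Clu at 13.82 ± 0.20 and Gpr22 at 10.80 ± 0.47 were among those without this order. Bmp10, a peptide of the adult right atrium, had 4.93 and was not examined. The summed signal of the 12 measured atrial markers was highest in male vehicle 3, at 60383. It was 55336 in female vehicle 3 and 58239 in male vehicle 1. This sum is weighted towards bright members such as Nppa, which was highest in male vehicle 3, and Clu. The list scores, which weight genes equally and include Sln, had another order. They were 0.90 in female vehicle 3, 0.82 in male vehicle 1 and -0.44 in male vehicle 3. In the verapamil arrays 1 array, female verapamil 3, was high, with 12.78 for Sln, 13.41 for Myl4 and 13.60 for Myl7. In tissue RNA, more cells of a type and more RNA per cell cannot be told apart, and a part of atrial tissue in these samples was not tested.

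**Figure D4:**
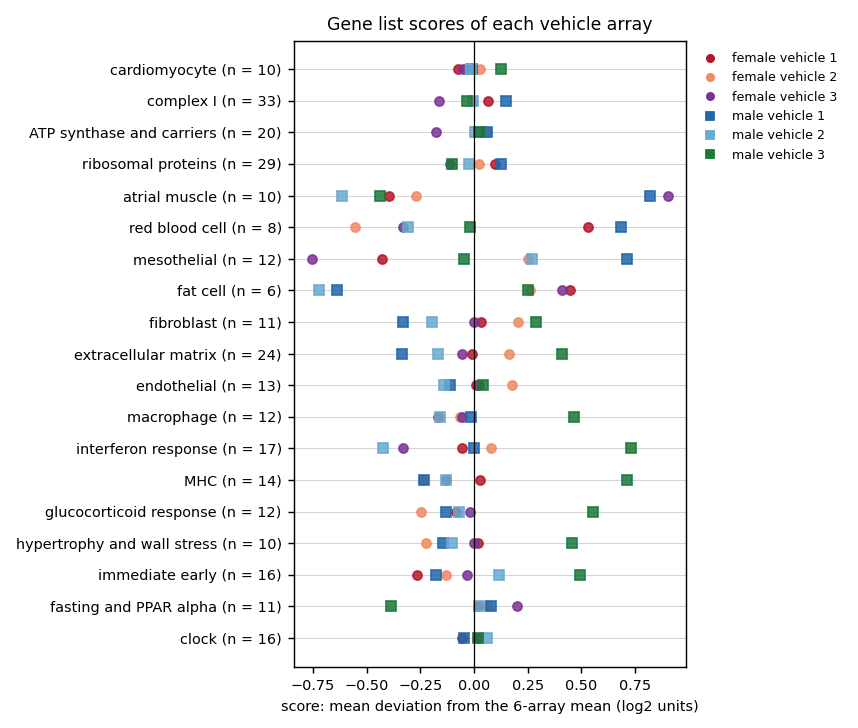
Score of each gene list in each vehicle array, the mean deviation of its genes (number in brackets) from their 6-array means in log2 units. Female vehicle 3 and male vehicle 1 have the highest scores for atrial muscle, which includes Sln. They were the 2 highest arrays for 3 of its 10 genes, Sln, Myl4 and Myl7. Female vehicle 1 and male vehicle 1 are highest for red blood cells. Male vehicle 3 is highest for the macrophage, interferon, MHC and glucocorticoid lists. The clock scores lie close together, though the clock genes vary singly.

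Red blood cell genes were high in female vehicle 1 and male vehicle 1. These were the 2 highest arrays for 7 of 8 examined markers, against 15% of all genes, with scores of 0.53 and 0.68 and -0.55 to -0.02 in the other arrays. Slc4a1, the anion exchanger of the red cell membrane, had 9.68 and 10.22 in the 2 arrays and at most 9.27 elsewhere. Alas2, the first enzyme of haem synthesis in red cells, had 13.72, 12.83 and 12.56 in the females and 13.80, 12.55 and 13.19 in the males. The beta globin Hbb-b2 had 12.86 and 12.61 in the 2 arrays and 11.26 to 12.14 elsewhere. The probe sets of Hba-a1 and Hba-a2 had 4.25 and 5.74, and 5 of the 15 listed genes had no probe set with a single symbol. The summed signal of the 10 measured markers was 40979 and 42975 in the 2 arrays and ran from 20516 to 29075 in the others. The same 2 arrays had the highest actin ratios, and the part of RNA quality in the result was not tested.

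Several of the brightest variable genes kept that order. The 25 genes of largest SD with a level above 10 were chosen after their values were seen. Tent5c, a poly(A) polymerase, had 12.56, 11.06 and 11.07 in the females and 13.05, 11.07 and 11.60 in the males, while its second, dimmer probe set did not follow (r = -0.03). Cd24a, a surface protein of immature blood cells, had 11.15, 9.23 and 9.36 in the females and 11.37, 9.65 and 10.16 in the males, and its other 2 probe sets deviated with it (r = 0.98 and 0.95 over 6 arrays). Rsad2, an antiviral enzyme induced by interferon, had 11.87, 10.34 and 10.24 in the females and 12.36, 10.19 and 11.36 in the males. Its 2 other probe sets deviated with it (r = 0.77 and 0.92). The first of them was highest in male vehicle 3 at 9.93 and the second in female vehicle 1 at 10.47. For the brightest probe set of each of these genes the 2 arrays of high red cell markers were highest. In the verapamil group female verapamil 1 was highest, with 13.80 for Tent5c, 12.47 for Cd24a and 13.17 for Rsad2.

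Markers of the mesothelium, the outer lining of the heart, followed another order. Male vehicle 1 was highest for 8 of 12 examined markers, against 17.7% of all genes. Upk3b, a membrane protein of that lining, had 10.65, 11.52 and 10.61 in the females and 12.30, 12.17 and 11.35 in the males. Lrrn4, another gene of the list, had 10.12 and 9.74 in male vehicle 1 and 2 and at most 9.15 elsewhere. The summed signal of the 13 measured markers ran from 3695 in female vehicle 3 to 11310 in male vehicle 1. Female vehicle 3, high for Sln, Myl4 and Myl7, was thus lowest here, while male vehicle 1 was high for those genes and for these markers. The lung gene Scgb1a1, made by airway cells, had 9.10 in male vehicle 1 and 4.93 to 7.04 in the other arrays, and the surfactant gene Sftpc had 6.54 ± 0.25 and no high array.

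Of 6 examined fat markers, 2 had an SD over 0.5, Car3 and Adipoq, and the median SD of the list was 0.33. Car3, an abundant enzyme of fat and slow muscle, had 10.84, 10.38 and 10.91 in the females and 7.44, 6.93 and 9.62 in the males, and the fat hormone Adipoq had 8.67, 7.93 and 8.21 against 5.49, 5.67 and 7.26. The sexes did not overlap for either gene, as for 6.95% of all probe sets tested, and male vehicle 3 lay nearest to the females. The other 4 were highest in a male. Pparg, the regulator of fat cell genes, Lipe, a lipase, and Fabp4, the fatty acid carrier of fat and vessels, had 8.99, 9.80 and 14.71 in male vehicle 3, and the lipase Pnpla2 had 12.94 in male vehicle 1. Without male vehicle 3 the SD of Car3 fell from 1.03 to 0.31. Neither gene passed the test between the sexes (adjusted p = 1.00 with limma).

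Male vehicle 3 was highest for 23.5% of all genes examined, against 21.4% for female vehicle 1, 13.9% for female vehicle 2, 13.4% for female vehicle 3, 17.7% for male vehicle 1 and 10.1% for male vehicle 2. Against this background it was highest for 14 of 17 interferon genes, 12 of 14 genes of the major histocompatibility complex (MHC) list, 11 of 12 macrophage markers, 10 of 12 glucocorticoid-responsive genes, 17 of 24 matrix genes and 8 of 16 immediate early genes. Its scores were 0.73 for the interferon list, 0.71 for MHC, 0.46 for macrophages and 0.55 for the glucocorticoid list. The median signal of this array was 110, against 82.0 to 95.0 in the others, and its 10th percentile was 9.52, against 6.42 to 7.13. The part of this signal background in the counts was not tested.

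Gbp2, a GTPase induced by interferon, had 10.95, 11.17 and 10.40 in the females and 10.56, 10.62 and 12.43 in the males. Its second probe set deviated with it (r = 0.95 over 6 arrays), and without male vehicle 3 its SD fell from 0.80 to 0.33. Irf7, a regulator of interferon genes, had 9.65 in male vehicle 3 and 7.62 to 8.52 in the others. Tap1, which loads peptides onto class I molecules, had 8.91 there and 6.95 to 7.67 elsewhere. Rsad2 was the exception among the brightest members, with the highest value of its brightest probe set in male vehicle 1. Another of its probe sets was highest in male vehicle 3, at 9.93.

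Among glucocorticoid-responsive genes, Fkbp5, a chaperone of the receptor, had 11.32 in male vehicle 3 and 9.51 to 10.31 in the others. The metal-binding Mt2 had 12.69, 10.83 and 11.86 in the females and 11.62, 12.05 and 13.13 in the males, and Ddit4 had 12.52 in male vehicle 3 and 10.87 to 12.03 elsewhere. Female vehicle 1 came second for Mt2. Lcn2 went against the list, with its lowest value, 8.85, in male vehicle 3. The macrophage marker Adgre1 had 10.18 in male vehicle 3 and 9.35 to 9.59 in the others, and the complement gene C1qc had 12.02 there and 11.30 to 11.60. The matrix genes Col1a1 and Postn had 11.05 and 10.77 there, against 9.36 to 10.61 and 9.41 to 10.35. The fasting and PPAR alpha list was lowest in this array, at -0.39, and Angptl4, an inhibitor of lipoprotein lipase, had 5.07 there and 6.75 to 7.48 in the others. Thbs1, a matrix protein of platelets and wounded tissue, had 10.01 in male vehicle 3 and 6.12 to 7.11 elsewhere, and its SD in verapamil arrays was 0.45.

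The class I gene H2-D1 showed probe sets of a single symbol that moved apart. Its brightest probe set had 13.26, 12.58 and 12.88 in the females and 12.35, 12.89 and 14.24 in the males. In all, 4 of its 7 examined probe sets deviated with each other (r from 0.98 to 0.99 with the brightest), and 3 went the other way (r from -0.86 to -0.83). Those 3 had 6.24 to 6.43 in female vehicle 1 and at most 6.92 in male vehicle 3, while the remaining arrays had 10.45 to 11.06. The 2 arrays with the lowest values of the one set were those with the highest values of the other. Among verapamil arrays, male verapamil 1 had 4.14 to 5.82 for the 3 probe sets, and female verapamil 3 had 3.75 to 6.78 for the other 4. Class I genes of the outbred stock differ in sequence, and the match of these probes to each mouse's alleles was not tested.

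**Figure D5:**
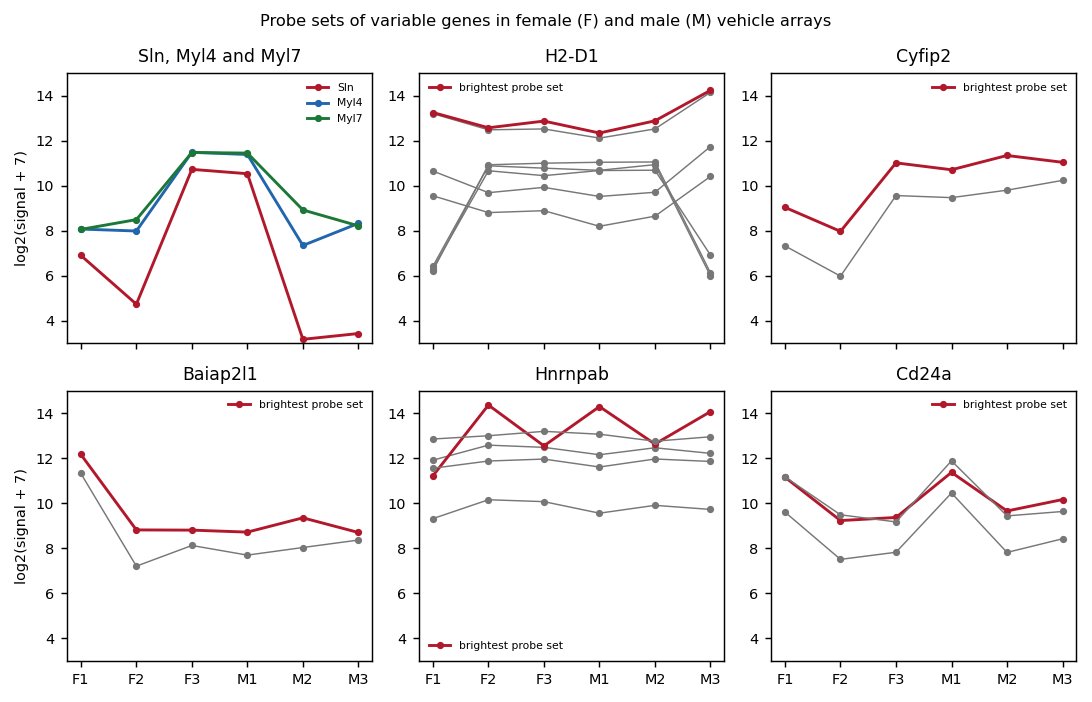
Values of variable genes by vehicle array (F1 to F3 female, M1 to M3 male) on the log2(signal + 7) scale, with 1 line a probe set, bold for the brightest, and lines only to join a probe set's values. Sln, Myl4 and Myl7, shown by their brightest probe set only, peak in F3 and M1. For H2-D1, 3 probe sets drop in F1 and M3 where the other 4 rise.

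Other genes stood apart in single arrays. Baiap2l1, which shapes membranes and actin, had 12.16 in female vehicle 1 and 8.70 to 9.35 in the others, its second probe set deviated with it (r = 0.95), and its SD in verapamil arrays was 0.12. Tmem14c, a carrier of haem synthesis, had 8.78 in male vehicle 3 and 10.89 to 11.67 elsewhere. Cenpf, a centromere protein, had 8.31 there and 10.14 to 10.82 elsewhere, and its SD fell from 0.97 to 0.25 without that array. Vwa5a and Prmt1 were low in female vehicle 1, at 9.06 and 9.09, against 10.93 to 11.52 and 11.01 to 11.51. Slc25a29, a mitochondrial carrier of basic amino acids, was low in male vehicle 2 at 9.16, against 10.33 to 11.16, and 3 of its 4 other probe sets deviated with it (r from 0.77 to 0.99).

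Cyfip2, a regulator of actin branching, split the arrays. It had 9.04, 7.98 and 11.02 in the females and 10.71, 11.35 and 11.04 in the males, and its second probe set gave r = 0.98. Iqcg, a gene of cilia and flagella, had 7.95, 3.49 and 3.82 in the females and 9.07, 8.38 and 8.53 in the males. Zfp30, a zinc finger gene, had 10.48, 7.25 and 10.40 against 8.74, 9.45 and 4.92, with r = 0.79 for its second probe set. Cd99, an adhesion protein, had 10.14, 11.60 and 9.55 against 11.23, 11.28 and 11.90, and both other probe sets deviated with it (r = 1.00 and 0.99). The potassium channel Kcna5 had 7.59 and 7.88 in female vehicle 1 and male vehicle 1, the arrays of high actin ratio, while the remaining mice had 9.60 to 10.43.

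Probe sets of a gene differed for some variable genes. Hnrnpab, an RNA-binding protein, had 11.21, 14.36 and 12.54 in the females and 14.29, 12.62 and 14.06 in the males, a range its other examined probe sets did not share. The next brightest ran only from 12.75 to 13.19. Csnk1d, a kinase that acts on clock proteins, had 10.59, 12.77 and 10.73 against 12.71, 10.82 and 12.73, and its deviations followed those of Hnrnpab (r = 0.93 over 6 arrays). Of its 4 other probe sets, 2 followed the brightest (r = 0.94 and 0.70) and 2 did not (0.08 and 0.16). Pabpn1, which lengthens poly(A) tails, had 12.68, 10.04 and 10.64 against 11.57, 11.32 and 10.07, and Cntd1, a meiosis gene, had 12.66, 9.72 and 10.20 against 11.72, 10.90 and 9.95. For Pabpn1, 2 other probe sets followed the brightest (r = 0.97 and 0.80) and 1 did not (-0.19). The deviations of Pabpn1 and Cntd1 had r = 0.99 over 6 arrays, and the other Cntd1 probe sets had levels of 5.88 and 5.86.

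In all, 5 of the 30 genes of largest SD had another examined probe set, and 4 had one with r over 0.5. For the 25 bright genes the counts were 13 and 12. Over all 5173 genes with another probe set, 44.8% had one with r over 0.5. For 15 of the 30 and 16 of the 25, leaving out 1 array lowered the SD by more than 1.5 times. These genes were chosen for a large SD and the share among all genes was not counted, so the 2 counts have no comparison.

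Some other lists had a median SD near or below that of all genes, 0.25. The clock list, which follows the time of day, had a median SD of 0.28 over 16 genes, and its largest was that of the activator Arntl, 0.68, with 6.22 in female vehicle 2 and 7.36 to 8.04 in the others. The cardiomyocyte markers had a median SD of 0.09, with Nppb the widest at 0.56. Ribosomal protein genes had 0.14, and the 9 heat shock genes 0.25, with Hsph1, a partner of Hsp70, at 11.82 in male vehicle 1 and 10.24 to 10.80 elsewhere. The smallest spread in the first 30 genes was that of Pln, 0.05, and of Fabp3, 0.05.

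Male and female vehicle mice were compared as the only groups among the 6 arrays. With limma over 22518 probe sets, 6 passed an adjusted p of 0.05 (0.0266%), 5 higher in males and 1 higher in females, and 543 had an unadjusted p under 0.05. Eif2s3y, a Y-linked translation factor, had 3.18, 3.66 and 3.08 in the females and 10.88, 10.28 and 9.70 in the males, without overlap (limma adjusted p = 0.000894). Its female values lie at the bottom of the scale, so the size of the difference is set by the pseudocount (6.98 with 7 and 5.50 with 25). Xist, the RNA that silences an X chromosome, had 11.18, 11.10 and 11.25 in the females and 7.19, 5.81 and 6.48 in the males, a male minus female difference of -4.68 ± 0.33 (SE, limma adjusted p = 0.00329). Uty, a Y-linked demethylase, had low female values too and differed by 3.97 ± 0.33 (SE, limma adjusted p = 0.00634), or by 3.34 with a pseudocount of 25. The other 3 probe sets carried no symbol, were higher in males and had no overlap. The sex labels of all 6 mice matched these genes. The design text mentions arrays of females only, while the labels give both sexes. That text gives 3 separate mice a group, which was taken to hold for the males too. The p-values set the difference between the sexes against the spread between these mice.

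No named gene outside the sex chromosomes passed. The smallest adjusted p-values of limma among them were those of Aldh1a1, which makes retinoic acid, at 0.269 and Igfbp3, a carrier of insulin-like growth factors, at 0.380. Aldh1a1 was higher in males by 1.15 ± 0.17 (SE) and Igfbp3 differed by -1.25 ± 0.19. Hsd11b1, which activates glucocorticoids, was higher in males by 1.20 ± 0.21 (limma adjusted p = 0.745). Of the X-linked genes that are active on both X chromosomes, Eif2s3x had 12.85, 12.45 and 12.63 in the females and 12.06, 11.98 and 11.76 in the males, without overlap (limma adjusted p = 1.00). The dimmest of its 3 probe sets overlapped between the sexes, as did all tested probe sets of Kdm6a, Ddx3x and Utp14a. With 3 mice in each group, the median standard error of a difference was 0.25.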

How the data were processed

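Left ventricular RNA of 12 mice was hybridised to Affymetrix Mouse Genome 430 version 2 arrays, 1 array a mouse. The deposited values were read as linear signal intensity, as the values themselves show, with a 2% trimmed mean of 500 on every array. The algorithm that made them is not given in the sources used here. No values were renormalised, so differences in signal background between arrays remain. From them log2(signal + 7) was computed, a scale that understates changes of dim genes. Of 45101 probe sets, 34958 had 1 gene symbol, 932 several and 9211 none, and 34754 of those with a symbol were matched to RefSeq. Each gene was represented by the probe set of highest mean over the vehicle arrays. Control probe sets (64) took no part, and 0 columns stayed unused.

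Groups came from the labels. SDs were taken around the mean of each sex. The sexes were compared with limma 3.58.1 in R 4.3.3 on probe sets above the median level of 6.53, with Benjamini-Hochberg adjustment at 0.05, tested on simulated data. Tables were made with Python 3.11.15, pandas 2.3.3 and numpy 2.4.6. Genes were named by rule: the 30 of highest level, the 30 of largest SD, the members of the gene lists and the probe sets with the smallest p between the sexes. The 25 bright variable genes and the H2-D1 probe sets were chosen after their values were seen. Members and lists were chosen with earlier results of these data known. Female and male mice with the same number had correlated deviations (0.41, 0.15 and 0.19), but female vehicle 2 and male vehicle 3 had 0.14 and female vehicle 3 and male vehicle 2 had 0.21 as well, and 1 female array has no number in its label, so the numbers were not taken as pairs. Alternatives were other pseudocounts, filters and probe set rules, a replicate block and leaving out arrays.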

Additional observations from a re-analysis of the deposited data

Results flagged for a closer look

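The scores of 42 gene lists were screened for 1 array that lay apart from the other 5, and chance flags about 1 in 20 groups. In 5 lists that array was male vehicle 3. Its score was highest for the MHC list at 0.71 (next highest array 0.03), for the glucocorticoid response at 0.55 (next -0.02), for macrophages at 0.46 (next -0.02) and for hypertrophy and wall stress at 0.46 (next 0.02). It was lowest for the fasting and PPAR alpha list at -0.39, with the next array at 0.02. In the other 2 lists it was female vehicle 3, the lowest for ATP synthase and carriers at -0.18 and for complexes II and III at -0.15, with the next array at 0.00 and 0.01. The lists share arrays, so these are not separate events.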

How the results depend on the processing

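Of the first 100 genes by signal, 67 were shared when a gene's probe sets were averaged, up to 100 under the other settings, and 98 to 99 when 1 array was left out. Averaging moved 10 of the 12 levels checked (Mb 9.87, Tpt1 9.57, Atp5c1 11.05, Fabp3 11.81). The number of genes with an SD over 1, 100, was 60 with a pseudocount of 25, 56 with the mean of all probe sets, 1377 without a filter, 17 with a filter at the 75th percentile and 98 to 127 without 1 array. Of the 100 most variable genes, 53 were shared with the mean of all probe sets, 17 without a filter, 17 with the 75th percentile filter, 59 to 74 without 1 array, 39 when female vehicle 1 and male vehicle 1, highest in actin ratio, were left out and 52 without female vehicle 3 and male vehicle 1, highest in atrial markers. Fewer arrays give less certain SDs. The 6 calls between the sexes became 3 with a pseudocount of 1, 0 (238 with an unadjusted p under 0.05) with the 75th percentile filter, which drops genes silent in 1 sex, and 0 to 9 without 1 mouse. The lowest counts came without male vehicle 3 (0, with 685 unadjusted), male vehicle 1 (1) and male vehicle 2 (1), the highest without female vehicle 1 (9), and each leaves 2 mice in a group. With the replicate block there were 7, and without the level filter 6. Eif2s3y fell below the filter, and so was not tested, with a pseudocount of 1 and without any 1 male. Uty fell below it without male vehicle 1 and without male vehicle 2. Of the single values, 420 of 461 SDs, 144 of 156 levels, 80 of 91 score ranges and 34 of 36 sex differences stayed on the same side or within the spread. With the level filter taken only on the arrays that were not the highest, an alternative chosen after seeing the data, the examined members stayed the same in 8 of 9 lists and Sln left the atrial list.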
